A study of Mus musculus with 9 samples.

Results

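The 36 genes described here are a named list of glycolysis enzymes, sugar and lactate carriers, oxygen sensors and targets of the hypoxia response, taken by symbol from the 39179 Ensembl genes listed for each library. All 36 were found, and 33 of them had enough reads to be compared between ages. The RNA came from single capillaries with the cells around them, cut by laser microdissection from the ossification front (OF) of the femur of Tg(TIE2GFP)287Sato/J reporter mice. The study's methods name this line by its stock and give no background strain for it. Juvenile mice were 4 weeks old (n = 5 libraries) and adult mice were 12 weeks old (n = 4 libraries). All 9 libraries carried the same reporter, in which the Tie2 promoter drives GFP in endothelial cells, and no group was treated or mutated. The study's methods state that many such cut pieces went into each sample. The GFP served only to find the vessels under the microscope. Each library thus held RNA of several vessel pieces and of every neighbouring cell type in them. The comparison asked how transcript levels at the OF differed between growing and mature bone.

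Glycolysis converts glucose to pyruvate, which is either reduced to lactate and exported or oxidised in mitochondria. When oxygen is low, the hydroxylases that mark hypoxia-inducible factor alpha subunits for VHL-dependent destruction lose activity, and the stabilised factor pairs with ARNT and activates genes that carry a short hypoxia response element. Bone is a low-oxygen tissue in which osteoblasts, chondrocytes and endothelial cells all rely strongly on glycolysis, and hypoxia-inducible factor signalling is known to couple vessel growth to bone formation.

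Most of this pathway showed no difference between ages that passed the test. Of the 33 tested genes, 1 was called at an adjusted p under 0.05 (edgeR's quasi-likelihood test with Benjamini-Hochberg adjustment over all 13418 tested genes), namely the monocarboxylate transporter gene Slc16a1, which was higher in adults. Over all tested genes the same rule called 3.88%, with 1.99% higher in juveniles and 1.89% higher in adults. At an unadjusted p under 0.05, 6 of the 33 genes passed, against 17.3% of all genes. The normalised counts of 4 of the 33 genes did not overlap between the ages, which was the case for 9.15% of all genes. Slc16a3 was the 1 gene of these 4 that was higher in juveniles, where the share of all genes was 5.07%, and Slc16a1, Aldoa and Tpi1 were higher in adults, where it was 4.08%. The median log2 fold change (juvenile over adult) was -0.17 over the 33 genes and -0.01 over all genes, and the median size of the change regardless of sign was 0.35 and 0.45. Of the 33 genes, 14 had a positive and 19 a negative value.

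Libraries held between 4856833 and 8077362 counts, so that 3 counts correspond to 0.371 to 0.618 CPM (counts scaled to the library total). This floor covers counting error only, since amplified reads are not independent molecules, whereas the 95% intervals of fold changes come from the edgeR fit and include the spread between libraries. For normalised counts, each count was scaled by the effective size of its library relative to the geometric mean of all libraries, and TPM is the count per kilobase of exon, scaled to the same total in every library. The endothelial markers were present at both ages, with a summed normalised count of 3928 to 6034 in juveniles and 4847 to 6144 in adults, and all 10 of them were tested with none called. Other cell types differed between the ages. Summed osteoblast markers were 1075000 to 1335000 in juveniles and 396900 to 586600 in adults, erythroid markers 2630 to 16040 and 29600 to 232500, neutrophil markers 160.3 to 533.7 and 712.8 to 27290, and macrophage markers 3044 to 5192 and 6935 to 11500. Chondrocyte and osteoclast marker sums overlapped between the ages, with chondrocyte markers at 30060 in adult replicate 2 against 2280 to 6511 in the other 8 libraries. Of the tested markers of these types, 5 of 12 osteoblast markers were called higher in juveniles and 2 higher in adults, and 8 of 8 erythroid, 8 of 10 neutrophil, 2 of 8 macrophage, 2 of 7 chondrocyte and 2 of 8 osteoclast markers were called higher in adults. Skeletal muscle markers summed to at most 85.6, with Myh4 and Myl1 at 0 in every library. The part of this shift in any difference given here was not tested, and in such bulk samples fewer cells of a type and less RNA per cell cannot be told apart. Reads of Ddx3y, a gene of the Y chromosome, numbered 524 and 439 in juvenile replicates 4 and 5 and at most 1 in the other 7 libraries, so the sexes were not balanced over the ages.

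On the length-scaled TPM scale, the 36 genes spanned a wide range of levels. Some enzymes of the middle and the end of the pathway stood at the top. Others were lower, with Eno1, Pgk1 and Pgam1 at means of 52.45, 34.58 and 26.1 TPM, below Bnip3l at 73.06 TPM. TPM used merged exon lengths and left out counts on near-identical copies, so the order may depend on both. Ldha, the lactate dehydrogenase subunit that favours reduction of pyruvate, had the highest mean over the 9 libraries (376 TPM), ahead of the aldolase gene Aldoa (336 TPM). Their libraries overlapped, at 251.7 to 441.4 TPM for Ldha and 247.2 to 451.1 TPM for Aldoa, so their order is not larger than the spread. Tpi1, encoding triosephosphate isomerase (189 TPM), and Pkm, encoding muscle-type pyruvate kinase (184 TPM), were next, and Gapdh followed at 102 TPM. Car9, Slc16a3, Adm and Egln3 had the lowest means. The hypoxia markers Egln3, Adm and Car9 were each at 0 in 3 or 4 of the 9 libraries and had at most 129 counts in any library, and all of them failed the filter on low counts.

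**Figure D1:**
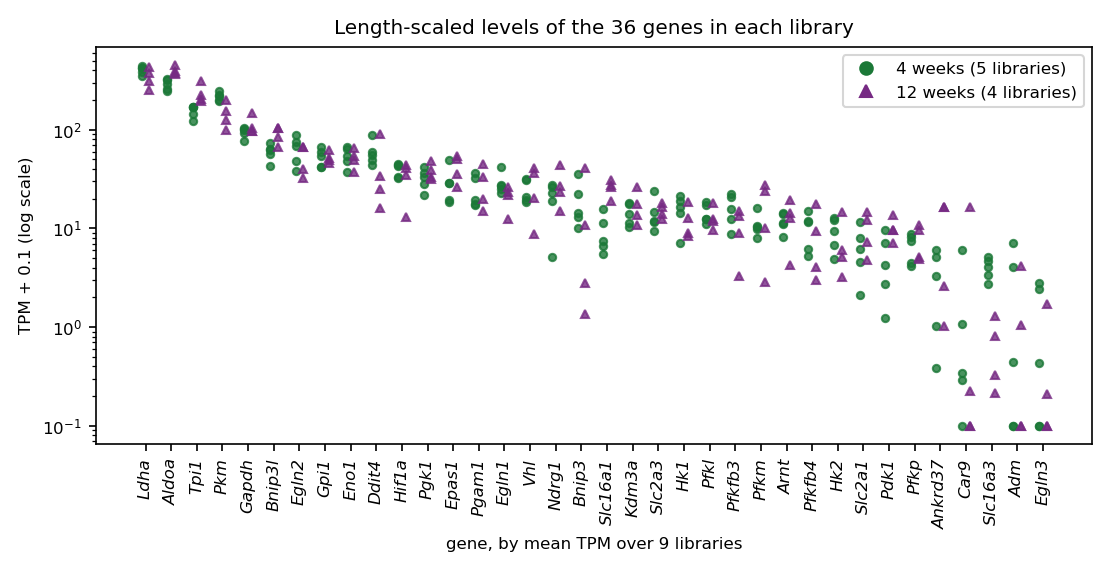
Level of each of the 36 genes (x axis, ordered by mean TPM over 9 libraries) in TPM + 0.1 on a log scale (y axis), with 1 point per library (circles for 4 weeks, triangles for 12 weeks). The points of the 2 ages mix for most genes, whereas the triangles of Slc16a3 lie under its circles and those of Slc16a1 above.

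Slc16a1 and Slc16a3 encode the proton-linked lactate carriers MCT1 and MCT4, and MCT4 is best known for lactate export from highly glycolytic cells. Their promoters are shown because Slc16a1 was the called gene and Slc16a3 its oppositely placed relative. An Ldha promoter is set beside them as that of a gene with motif matches and no detected age difference, and Slc16a3 and Ldha were chosen after their values were seen. The sequences are RefSeq promoters of GRCm38.p6, on the plus strand and 5′ to 3′, covering the 250 bases before the start site, except that Slc16a3 was shortened to 236 bases where an annotated exon of another transcript begins. Slc16a1 lies at chr3:104638414-104638663, Slc16a3 at chr11:120948817-120949052 and Ldha at chr7:46845554-46845803. Capitals mark matches to ACGTG or GCGTG on either strand, the core of the hypoxia response element, including those inside the palindrome CACGTG, which is also the E-box motif and is matched on both strands.

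Slc16a1: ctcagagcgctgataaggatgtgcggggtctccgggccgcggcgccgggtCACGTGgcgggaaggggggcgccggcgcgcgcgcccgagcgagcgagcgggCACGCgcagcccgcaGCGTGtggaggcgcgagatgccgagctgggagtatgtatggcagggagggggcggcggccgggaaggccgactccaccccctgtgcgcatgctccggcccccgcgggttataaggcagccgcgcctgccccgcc
Slc16a3: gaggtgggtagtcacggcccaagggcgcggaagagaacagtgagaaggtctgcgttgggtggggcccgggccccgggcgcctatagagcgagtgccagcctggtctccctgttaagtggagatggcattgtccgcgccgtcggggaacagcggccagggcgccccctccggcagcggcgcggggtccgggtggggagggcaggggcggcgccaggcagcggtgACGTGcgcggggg
Ldha: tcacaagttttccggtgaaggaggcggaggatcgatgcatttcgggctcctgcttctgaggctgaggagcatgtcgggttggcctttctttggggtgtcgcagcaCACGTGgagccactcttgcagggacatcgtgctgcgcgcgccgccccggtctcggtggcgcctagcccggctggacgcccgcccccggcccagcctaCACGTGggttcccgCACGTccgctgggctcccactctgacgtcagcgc

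In Slc16a1 the matches start 200, 199, 149 and 134 bases before the start site, of which the first pair is the CACGTG palindrome. In Slc16a3 they start 27 and 14 bases before it, and the second lies in the part not printed. The Ldha promoter shown held 5 matches, of which 4 were in CACGTG, counted on both strands. Another Ldha promoter, not shown, held 1 match. Of the 36 genes, 32 had at least 1 promoter in the RefSeq table, and the exceptions were Bnip3l, Epas1, Ndrg1 and Slc2a3. At least 1 promoter with a match was found for 29 of these 32 genes (90.6%), with none in Gpi1, Tpi1 and Vhl, against 61.5% of the 9913 tested genes with a promoter and 41.5% of all genes with one. Counted by promoter, since a gene can have several, 37 of 47 promoters of these genes (78.7%) and 38.6% of all 32851 promoters held a match. CACGTG was present in 6.02% of all promoters. A match is only a stretch of these letters, and says nothing of binding.

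Slc16a1 (chr3:104638668-104658462, GRCm38) was higher in adults. The normalised count was 74.0, 57.9, 76.1, 173.2 and 121.1 in juvenile replicates 1 to 5 and 210.4, 317.6, 302.8 and 346.0 in adult replicates 1 to 4. Every adult library was above every juvenile library, with the lowest adult value closest to the highest juvenile one. The means were 100.4 ± 47.0 (SD, n = 5) in juveniles and 294.2 ± 58.7 (SD, n = 4) in adults, and the log2 fold change was -1.55 (SE 0.37, 95% interval -2.36 to -0.74, edgeR adjusted p = 0.0378). No stretch of its transcript was shared with another annotated gene. The call was lost when any of juvenile replicates 1, 2, 3 and 5 or adult replicates 2, 3 and 4 was left out, at adjusted p-values of 0.0580 to 0.0928, and without juvenile replicates 4 and 5 together the log2 fold change was -2.08 with an adjusted p of 0.0502.

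Slc16a3 (chr11:120948480-120960868) ran the other way. The normalised count was 68.3, 33.5, 41.4, 53.0 and 58.5 in juveniles and 16.0, 3.1, 10.1 and 1.6 in adults. All juvenile libraries lay above all adult libraries, but the adult values came from 22, 3, 13 and 2 reads. The log2 fold change was 2.70 (SE 0.87, 95% interval 0.83 to 4.57), and the adjusted p of 0.108 missed the threshold. On the TPM scale Slc16a3 stood at 2.60 to 5.01 in juveniles and 0.116 to 1.19 in adults, whereas Slc16a1 stood at 5.40 to 15.6 and 18.9 to 30.6.

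The ratio of both transporters within a library does not depend on scaling between libraries. The log2 ratio of Slc16a3 to Slc16a1 in counts per kilobase (0.5 counts added) was -0.38, -1.05, -1.13, -1.96 and -1.30 in juveniles and -3.96, -6.70, -5.12 and -7.73 in adults. Slc16a1 was thus the higher of both on this scale in all 9 libraries, and the margin was wider in every adult than in any juvenile. In juvenile replicate 1 the reads were close, at 65 for Slc16a1 and 60 for Slc16a3. The means differed by 4.71 (two-sided exact permutation test, p = 0.00794, the smallest that 5 libraries against 4 allow, and 0.0714 after adjustment over 9 pairs). All 5 juvenile ratios lay above all 4 adult ratios. As the ratio uses the same reads as the single genes, it is not independent of them.

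**Figure D2:**
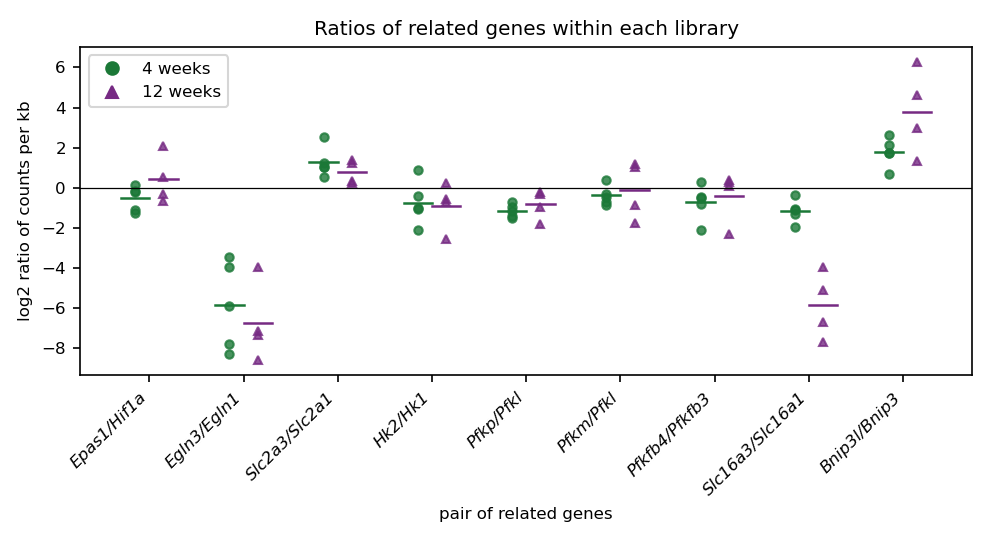
Log2 ratio of counts per kilobase (y axis) for 9 pairs of related genes (x axis), with 1 point per library (circles for 4 weeks, triangles for 12 weeks) and lines at the means of each age. The ages separate for Slc16a3/Slc16a1 and overlap for the other 8 pairs.

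The other pairs overlapped between ages, with unadjusted exact permutation p-values of 0.0873 to 0.833. Slc2a3, encoding the high-affinity glucose transporter GLUT3, was above Slc2a1, encoding GLUT1, in all 9 libraries on this scale, at log2 ratios of 0.54 to 2.50 in juveniles and 0.22 to 1.38 in adults. Bnip3l exceeded Bnip3, a related mitophagy receptor, in all 9 libraries, and the ratio reached 6.28 in adult replicate 1 against 1.32 in adult replicate 4. Of the Bnip3 transcript, 94.2% matched near-identical copies in 4 other genes, which took 2 counts in all, against 34.7% for Bnip3l. The handling of reads with several matches is not given, so the order of this pair may depend on it. Without adult replicate 4 the mean difference of this pair was -2.83 with p = 0.0179 (exact permutation test), the smallest that 5 libraries against 3 allow. The ratio of Epas1 to Hif1a ranged from -1.25 to 0.13 in juveniles and from -0.66 to 2.07 in adults.

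Pyruvate handling held the remaining lactate-related genes. Ldha (chr7:46841475-46855627) had normalised counts of 3551, 3535, 3302, 3169 and 2812 in juveniles and 2099, 3712, 3272 and 2621 in adults. The ages overlapped, and the log2 fold change was 0.16 (SE 0.18, 95% interval -0.22 to 0.55, edgeR adjusted p = 0.734), so a change of 1 log2 unit in either direction lies outside the interval. Pdk1, the hypoxia-responsive kinase that switches off pyruvate dehydrogenase, was at 22.8 to 173.6 in juveniles and 140.5 to 276.4 in adults, with a log2 fold change of -1.11 (SE 0.53, edgeR adjusted p = 0.300).

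**Figure D3:**
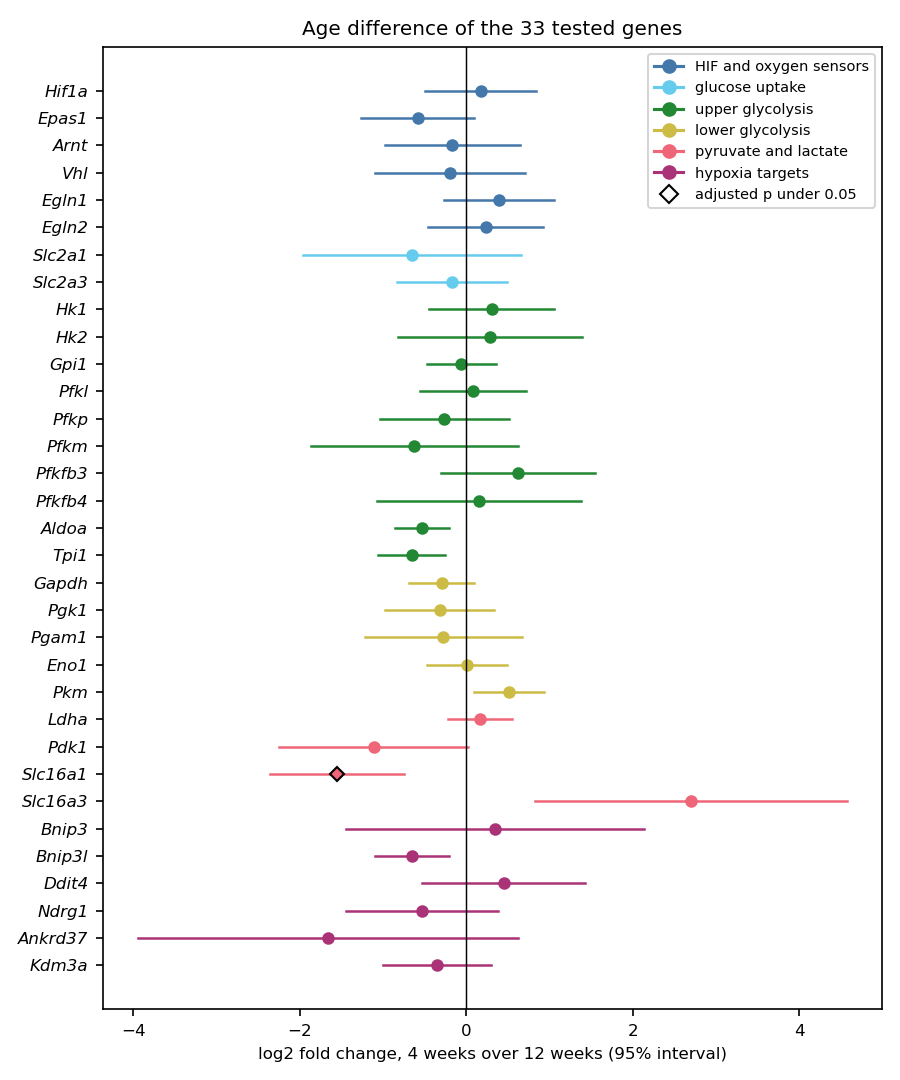
Log2 fold change, 4 weeks over 12 weeks (x axis), of the 33 tested genes (y axis, coloured by role), with 95% intervals from the edgeR fit. Slc16a1, drawn as a diamond, is the only one of these genes with an adjusted p under 0.05, and the intervals of Aldoa, Tpi1, Pkm, Slc16a3 and Bnip3l also leave out 0 without passing the adjustment.

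Among the 10 genes of upper glycolysis, Aldoa and Tpi1 had the smallest p-values, and neither passed the adjustment. Aldoa (chr7:126795234-126800751) cleaves fructose bisphosphate, and its normalised count was 2455, 2037, 2177, 1803 and 1833 in juveniles and 3309, 2847, 2783 and 2949 in adults. The ages did not overlap, and the log2 fold change was -0.53 (SE 0.15, 95% interval -0.85 to -0.21, edgeR adjusted p = 0.0711). Tpi1 (chr6:124810586-124814296), which interconverts the products of that cleavage, was at 1203, 1118, 797.4, 1165 and 951.2 in juveniles and 2146, 1476, 1630 and 1357 in adults. Its ages did not overlap either, with a log2 fold change of -0.66 (SE 0.19, 95% interval -1.06 to -0.25, edgeR adjusted p = 0.0744). The Tpi1 transcript shares 34 exon bases with Spsb2 on the opposite strand, and 19.3% of it matches a copy gene without counts. With at least 10 counts required in every library, fewer genes were tested and both passed, at adjusted p-values of 0.0468 for Aldoa and 0.0385 for Tpi1.

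**Figure D4:**
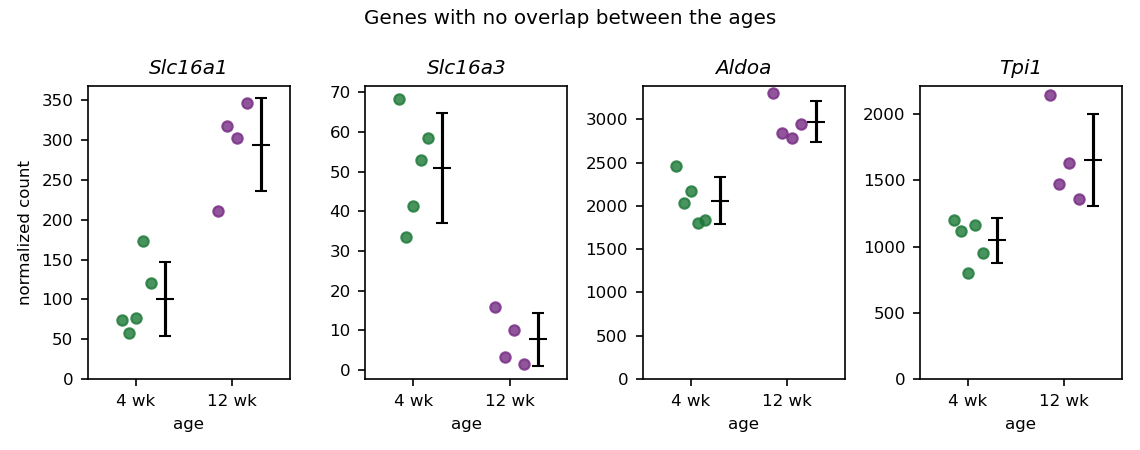
Normalised count (y axis, from 0) at each age (x axis) for the 4 genes whose ages do not overlap, with 1 point per library and the mean ± SD beside them (n = 5 and n = 4). Adult libraries are higher for Slc16a1, Aldoa and Tpi1 and lower for Slc16a3.

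The other 8 genes of upper glycolysis had log2 fold changes between -0.62 and 0.62. They encode hexokinases, which trap glucose in the cell (Hk1, Hk2), the isomerase of the next step (Gpi1), the 3 phosphofructokinase subunits that control the committed step (Pfkl, Pfkp, Pfkm), and the enzymes that set the level of its activator (Pfkfb3, Pfkfb4). Gpi1 was the most tightly bounded of them, at -0.06 (95% interval -0.47 to 0.36), and Pfkm the least, at -0.62 (95% interval -1.87 to 0.62). Adult Pfkm values alone ran from 24.1 to 235.9. Pfkp shares exon bases with a gene on the opposite strand, Pitrm1, and the strand setting of the counting is not given in the sources used here.

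Lower glycolysis held 5 genes, none called. Pkm (chr9:59656368-59679375), which makes pyruvate and ATP, had normalised counts of 2800, 2976, 2320, 2788 and 2403 in juveniles and 2502, 2021, 1658 and 1268 in adults. Adult replicate 1 fell within the juvenile range and the other 3 adult libraries below it, and the log2 fold change was 0.51 (SE 0.20, 95% interval 0.09 to 0.94, edgeR adjusted p = 0.181). Gapdh, Pgk1, Pgam1 and Eno1, which carry the pathway from glyceraldehyde phosphate to phosphoenolpyruvate, had values of -0.29, -0.32, -0.27 and 0.01. The interval of Gapdh, a common reference gene, was -0.68 to 0.10. Several of these genes have near-identical copies elsewhere in the annotation, where stretches of at least 75 bases matched at 97% identity or more. They covered 35.8% of the Gapdh transcript in 97 other genes, 85.6% for Eno1, 68.8% for Pgk1, 65.5% for Pkm and 43.1% for Pgam1. The copies of Gapdh took 4624 counts in all against 10059 on Gapdh, and with the counts of copies added its log2 fold change was -0.33 (edgeR adjusted p = 0.317).

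Glucose uptake was represented by 2 transporters. Slc2a3 (chr6:122727809-122801640) was at 219.6, 162.7, 197.7, 262.7 and 420.4 in juveniles and 254.6, 312.4, 236.1 and 332.6 in adults. The ages overlapped, with juvenile replicate 5 the highest of all 9, and the log2 fold change was -0.17 (SE 0.31, 95% interval -0.83 to 0.49, edgeR adjusted p = 0.860). Slc2a1 was at 18.2 to 98.4 in juveniles and 43.5 to 129.0 in adults, with a log2 fold change of -0.65 and a wide 95% interval of -1.96 to 0.66.

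The oxygen-sensing genes gave no call. Egln2 (chr7:27158658-27166802), encoding the prolyl hydroxylase PHD1, had the highest mean TPM of this group (57.9), and its normalised counts were 488.1, 502.7, 251.1, 616.2 and 325.9 in juveniles and 229.3, 489.5, 486.9 and 283.9 in adults. High and low libraries occurred at both ages, and the log2 fold change was 0.23 (SE 0.32, 95% interval -0.46 to 0.92, edgeR adjusted p = 0.801). Hif1a, encoding the broadly expressed alpha subunit, had a log2 fold change of 0.17 (95% interval -0.50 to 0.84), and adult replicate 1, at 192.3, was far below the other adult libraries at 519.0 to 670.8. Epas1, encoding the HIF-2 alpha subunit prominent in endothelium, was at -0.58 (95% interval -1.26 to 0.09), while the partner subunit Arnt, the ubiquitin ligase component Vhl and the main oxygen sensor Egln1 were at -0.17, -0.20 and 0.39. Egln3, a hydroxylase that is itself a hypoxia target, had no more than 19 counts in any library and was not tested.

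The 6 tested hypoxia targets outside glycolysis were not called. Bnip3l (chr14:66985239-67008877) encodes the mitophagy receptor NIX, which also clears mitochondria from maturing red cells, and it had the highest mean TPM among them (73.1). Its normalised counts were 630.3, 683.5, 520.9, 603.2 and 399.1 in juveniles and 1007, 674.0, 864.3 and 1014 in adults. Adult replicate 2 fell within the juvenile range and the other 3 adult libraries were above it, with a log2 fold change of -0.65 (SE 0.21, 95% interval -1.10 to -0.20, edgeR adjusted p = 0.105). That library also had the lowest adult sum of erythroid markers, 29600 against 49560, 71000 and 232500, and their part in the Bnip3l values was not tested. Of the Bnip3l transcript, 34.7% matches a copy gene that took 29 counts in all. Bnip3 ranged from 7.3 to 238.3 within adults alone, and its log2 fold change of 0.35 had an interval of -1.44 to 2.14. Ddit4, an inhibitor of mTORC1 signalling, the stress-response gene Ndrg1 and the histone demethylase gene Kdm3a were at 0.45, -0.53 and -0.35. Ndrg1 shares 419 exon bases with Gm17035 on the opposite strand, which had up to 388 counts in a library. Ankrd37, a small hypoxia-induced ankyrin protein gene, had few reads and a 95% interval of -3.94 to 0.62, and it shares exon bases with Ufsp2 and Lrp2bp on the opposite strand. Adm, encoding the vasodilator adrenomedullin, and Car9, encoding a carbonic anhydrase, were not tested.

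Of the 33 genes, 13 had a 95% interval lying wholly within 1 log2 unit of 0 and 29 had a fold change within it. The intervals of the other 20 genes reached beyond that size. Over all 13418 tested genes, 3291 had such an interval and 10807 such a fold change.

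Around these genes, a list of 78 further genes of the same pathways was examined, of which 67 were tested and 4 called, 3 higher in juveniles and 1 higher in adults, beside 3.88% of all genes (1.99% and 1.89% by direction). The median log2 fold change over the 67 was -0.02. None of the 12 tested isozymes and related sugar enzymes and none of the 7 tested further carriers and lactate genes was called, and 1 of 10 pyruvate dehydrogenase genes, 1 of 10 further genes of the oxygen-sensing system and 2 of 28 further hypoxia targets were. The hypoxia-responsive growth factor gene Vegfa had a log2 fold change of 0.15 (edgeR adjusted p = 0.846).

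Pdk4, a pyruvate dehydrogenase kinase that responds to fasting and fatty acids, was higher in juveniles. Its normalised counts were 489.3, 468.3, 366.0, 593.8 and 423.0 in juveniles and 103.0, 137.3, 250.0 and 271.3 in adults, with no overlap. The log2 fold change was 1.30 (SE 0.32, edgeR adjusted p = 0.0392). Pdk1 had the opposite sign without a call, and Pdk2 and Pdk3 overlapped between ages, at log2 fold changes of 0.52 and -0.08. No test compared the 4 kinases with each other.

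**Figure D5:**
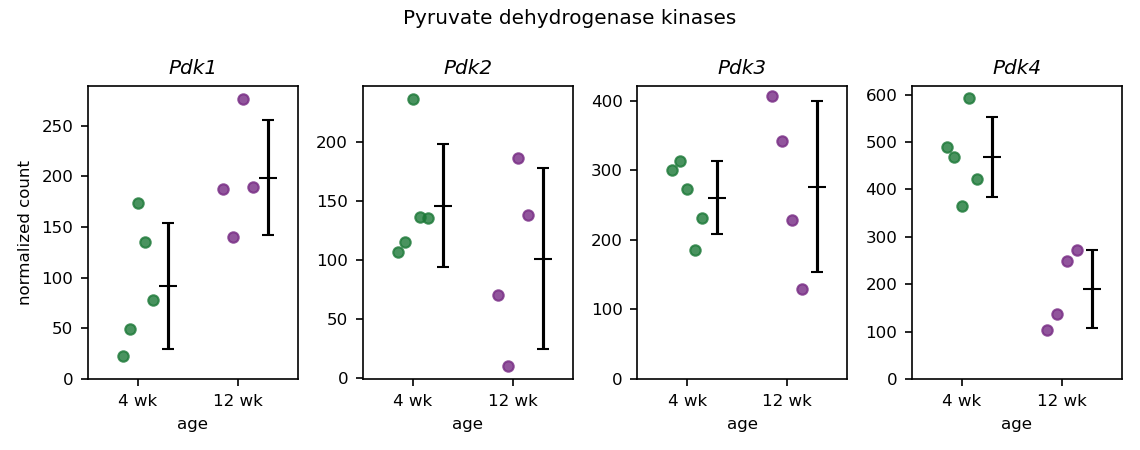
Normalised count (y axis) of the 4 pyruvate dehydrogenase kinase genes at each age (x axis), with 1 point per library and the mean ± SD beside them (n = 5 and n = 4). Pdk4 separates the ages, and the libraries of Pdk1, Pdk2 and Pdk3 overlap.

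P4ha2, encoding a catalytic subunit of collagen prolyl hydroxylase, was at 789.6, 934.9, 800.1, 717.5 and 831.4 in juveniles and 544.1, 140.5, 173.9 and 243.0 in adults. The ages did not overlap, and the log2 fold change was 1.56 (SE 0.35, edgeR adjusted p = 0.0267). Car12, encoding a membrane carbonic anhydrase, was at 463.1, 963.8, 1684, 2001 and 1820 in juveniles and 204.6, 360.6, 581.6 and 321.6 in adults. Juvenile replicate 1 fell within the adult range, and the log2 fold change was 1.92 (SE 0.41, edgeR adjusted p = 0.0217). Cited2, encoding a competitor of HIF alpha for its coactivators, was higher in adults, at 159.3, 189.0, 227.1, 209.7 and 268.7 in juveniles and 396.1, 301.9, 780.4 and 522.1 in adults. Its ages did not overlap, with a log2 fold change of -1.25 (SE 0.29, edgeR adjusted p = 0.0348). P4ha2 and Car12 were higher at the age with the higher osteoblast marker sums, whose part in these values was not tested. Leaving out juvenile replicates 4 and 5 together ended all 4 calls, with edgeR adjusted p-values of 0.220 for Pdk4, 0.146 for P4ha2, 0.189 for Car12 and 0.148 for Cited2. Each of the 9 libraries, left out alone, ended at least 1 of the 4 calls, with edgeR adjusted p-values of up to 0.107 for Pdk4, 0.0733 for P4ha2, 0.0621 for Car12 and 0.0973 for Cited2.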

How the data were processed

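RNA of microdissected capillaries with surrounding cells from the OF was amplified with the SMART-Seq v4 kit, sequenced as paired-end reads and mapped by the authors to mm10 with TopHat2 and Bowtie2. The submitters' processing notes also name featureCounts. The authors deposited whole-number counts per Ensembl gene and library, without normalization. Annotation release, strand setting and handling of reads with several matches are not given in the sources used here.

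Symbols came from the GENCODE annotation of GRCm38 (96.2% of 39179 identifiers). Both ages, as the labels give them, were set against each other in R 4.3.3 with edgeR 4.0.16 (filterByExpr, TMM, quasi-likelihood F test, Benjamini-Hochberg over all tested genes). DESeq2, which the study names, was an alternative, in version 1.42.0 here. The labels tie no library to a named mouse, so p-values measure the spread between libraries, which may be partly technical. Log2 ratios of counts per kilobase used a pseudocount of 0.5, and two-sided exact permutation tests covered all 126 assignments of the libraries (scipy 1.17.1). TPM used merged exon lengths. Each of the 36 library pairs was checked, and none were copies.

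The 36 genes, the 78 further genes and the markers of 13 cell types were chosen with earlier results of these data known. Every gene was named with its role, and values per library were given for genes with an adjusted p under 0.05, genes whose ages did not overlap and the gene with the highest mean TPM of each of 6 roles. Of the further genes, the called ones were named, and Vegfa and the Pdk family were chosen after their values were seen. Promoter matches were searched in the 250 bases before RefSeq start sites. The fit was tested on simulated counts. The other alternatives were the size factors of DESeq2, upper quartile scaling, limma 3.58.1 voom with quality weights, other filters, removal of haemoglobin, immunoglobulin, mitochondrial and sex-linked genes, a replicate block, each library left out and, added after seeing the data, the summing of near-identical copies (at least 30% of a transcript shared).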

Additional observations from a re-analysis of the deposited data

Results flagged for a closer look

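Within-age values of the 36 genes and 9 ratios were examined for a single library far from the others of its age by Dixon's test at the 95% level. It picked 5 of 90 groups. For normally distributed values, chance alone picks about 1 in 20, or 4.5. Genes with libraries at or near 0 counts, as Egln3 and Car9, are not so distributed, so this number is only a rough guide. Egln1 was at a normalised count of 365.3 in juvenile replicate 2, against 199.5 to 247.4 in the other juveniles. Egln3 was at 11.01 in adult replicate 4, against 0 to 0.7255 in the other adults. Car9 stood apart at both ages, at 34.17 in juvenile replicate 4, against 0 to 5.343, and at 100.2 in adult replicate 3, against 0 to 0.7255. Car9 shares 214 exon bases with Gm12454 on the opposite strand, which took 218 counts in all against 165 on Car9. The part of this overlap in the Car9 values was not tested. The log2 ratio of Pfkfb4 to Pfkfb3 was -2.339 in adult replicate 1, against 0.08 to 0.38 in the other adults.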

How the results depend on the processing

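All 9 genes with values per library kept the direction of their log2 fold change under every alternative that could be run, with Slc16a3 not tested where 10 counts were required in every library. The fold change of Slc16a1 ranged from -2.08 to -1.40, its adjusted p from 0.000892 to 0.111, and its call remained under 10 of 19 alternatives. Of the list, 1 gene of 33 tested was called in the reported fit. The count was 5 of 35 tested with DESeq2 (Slc16a1, Slc16a3, Aldoa, Tpi1 and Bnip3l). It was 3 of 31 tested with at least 10 counts in every library. It was 0 with the replicate block (7 at an unadjusted p under 0.05 in edgeR). Without juvenile replicates 4 and 5 together it was 0 (6 at an unadjusted p under 0.05 in edgeR). With 1 library left out it was 0 to 1 (6 to 7 at an unadjusted p under 0.05 in edgeR). For the further pathway genes, 4 of 67 tested in the reported fit, the counts in the same order were 11 of 71, 8 of 57, 1, 0 (15 unadjusted in edgeR) and 0 to 5 (13 to 19 unadjusted). For all genes, 520 of 13418 tested in the reported fit, DESeq2 called 1490 of 15726 tested. The fit with at least 10 counts in every library called 647 of 9847 tested. The replicate block left 89, the fit without juvenile replicates 4 and 5 left 73, and leaving out 1 library gave 262 to 651. The number of the tested genes of the list with no overlap was 3 to 6 under all alternatives run, with 6 without adult replicate 2, where all genes with no overlap rose from 1228 of 13418 to 2046 of 14046. The number of ratios with an exact permutation p under 0.05 was 1 to 2, and 2 without adult replicate 4, where Bnip3l/Bnip3 joined. Summing near-identical copies changed no call. It adds only counts already given to the copies, which were 2 for Bnip3, 6 for Pgk1 and 0 for Pkm. Reads left out for having several matches would not be recovered, so it cannot show their part. There was no sign that replicate numbers pair the libraries. The deviations of same-numbered libraries correlated at -0.03 to 0.03, against -0.0446 to 0.0603 for the other pairs. A shared preparation of libraries was not tested. Why the counts moved was not tested. Low counts limit Slc16a3, Ankrd37, Egln3, Adm and Car9 most, each with libraries at 3 counts or fewer. The part of library depth in these low counts was not tested.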
